A study of Rattus norvegicus with 12 samples.

Results

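Transient receptor potential (TRP) channels are cation channels of the cell membrane, and 9 of their genes were followed in hippocampal RNA of blast-exposed rats: Trpm2, Trpm3, Trpm4 and Trpm7 of the TRPM family, Trpc1, Trpc4, Trpc5 and Trpc6 of the TRPC family, and Trpv2 of the TRPV family. They are 9 of the 27 TRP genes and 9 of the 17494 genes in the count table. Trpm4 was chosen by its small unadjusted p in the comparison of boldine with control in these same libraries (0.00679 in the edgeR fit), and the other 8 as detected relatives of it, so the boldine values of the 9 genes are given as a description and without a test. The count table holds 1 library per rat, from 6 rats fed boldine in chow (blast-boldine, 500 mg/kg chow) and 6 rats fed chow without boldine (blast-controls). All 12 were male Long Evans rats, wild type by their labels, that were exposed to blast 3 times from 10 weeks of age and sampled 29 weeks after blast. Both groups carry the blast exposure, and rats without blast were not analysed here. By its labels the tissue is brain, and by the methods of the study it is hippocampus. Boldine is an alkaloid of the boldo tree that blocks connexin hemichannels.

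TRP channels let sodium, and most of them calcium, into the cell. TRPC channels open downstream of receptors coupled to Gq, such as the group I metabotropic glutamate and muscarinic receptors, through phospholipase C. Trpm4 is opened by intracellular calcium and carries sodium and potassium but almost no calcium, so that a calcium rise is turned into depolarization. In injured nervous tissue it is known as the partner of the sulfonylurea receptor Abcc8 (Sur1). Trpm2 is opened by ADP-ribose and calcium under oxidative stress, and Trpm7 joins a channel for magnesium, zinc and calcium to a kinase.

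Totals of counts on genes lay between 10148474 and 40850106 in 11 libraries, and blast-control rat 6 stood apart with 74008. Levels are given in CPM, which scale the counts of each library to a common total after TMM normalization. A single count of rat 6 equals 15.8 CPM, and 3 counts, the least taken to be a detection, were 47.5 CPM there against 0.0658 to 0.307 CPM in the other rats. These floors and the intervals below cover counting error only. Means and SDs of blast-controls are therefore given for 5 rats, without rat 6, and fits are given with and without it. The libraries also fell into 2 sets. Library names carry suffixes from 1 to 6, each borne by 2 rats. They were divided into 2 runs that each hold every suffix once, with rat numbers rising with the suffix. This rule, which the labels do not state, allows 4 divisions. The division used (set 1 with rats 1, 7, 9, 20, 32 and 35, set 2 with rats 4, 5, 6, 12, 17 and 19) was chosen because it accounted for 95% of the first principal component, which held 68.4% of the variance, while treatment accounted for 1.52% of that component. The component was computed without rat 6, whose place in set 2 follows from the rule alone. Each set has 3 rats of each group. The labels do not say what the suffix stands for. A list of markers of excitatory neurons of the hippocampus summed to 2801 to 5396 CPM in the 11 libraries. A list for septum, thalamus and striatum summed to 110 to 147 CPM. The largest parts of the first were Camk2a and Slc17a7, with means of 1459 and 897 CPM in blast-boldine rats. The largest part of the second was Lhx2, at 65.6 CPM. As the lists hold different genes, these sums cannot tell which region was sampled.

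Trpm4 was the least abundant of the 9 genes and the one whose blast-boldine and blast-control libraries did not overlap once rat 6 was left out. The gene lies on the reverse strand at chr1:95782000-95811746 of mRatBN7.2 and shares no exon base with another annotated gene. In blast-boldine rats 12, 17, 19, 20, 32 and 35 its level was 3.35, 3.07, 3.23, 2.39, 3.03 and 3.48 CPM. In blast-control rats 1, 4, 5, 7 and 9 it was 4.83, 5.63, 4.51, 4.24 and 3.75 CPM. All 6 blast-boldine libraries were therefore below all 5 blast-control libraries. Over all genes tested, 0.073% had every blast-boldine library below every blast-control library without rat 6, and 0.073% had every one above, and among the 9 genes Trpm4 was the 1 gene of the first kind and none was of the second. Since the gene was chosen on this comparison, nothing is read from these shares. The groups were close at their edge: rat 35, the highest of the blast-boldine rats, had 3.48 CPM with an exact Poisson 95% interval of 2.72 to 4.40, and rat 9, the lowest of these blast-controls, had 3.75 CPM with an interval of 2.74 to 5.02. The gene rested on 31 to 220 counts in these 11 libraries.

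With boldine Trpm4 averaged 3.09 ± 0.384 CPM (SD, n = 6). Without boldine, rat 6 left out, it averaged 4.59 ± 0.701 CPM (SD, n = 5), and the ratio of these means was 0.674. Rat 6 had 0 counts, where a library of its depth would hold 0.290 counts at the level of the other libraries, so that its level could not be told from theirs at this depth. The fitted log2 fold change, blast-boldine over blast-control, was -0.56 (SE 0.17) with all 12 libraries and -0.57 (SE 0.15) without rat 6. With the library set as a second term it was -0.58 (SE 0.15). The mean log2 CPM of blast-boldine minus blast-control rats was -0.52 in set 1 (3 rats against 3) and -0.63 in set 2 without rat 6 (3 rats against 2). Since no blast-boldine rat was above any of the 5 blast-controls, the sign within each set was fixed by the values above.

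Across all genes, 0.0% of the 12325 genes tested passed an adjusted p of 0.05 (edgeR quasi-likelihood test, Benjamini-Hochberg), and Trpm4 was therefore not called. The smallest adjusted p of any gene in any fit was 0.791, with the library set in the model. An unadjusted p below 0.05 was found for 132 genes, 68 higher and 64 lower, which is 1.07% of those tested, and Trpm4 had the 11th smallest p of all. DESeq2 gave 85 such genes and limma-voom 115. Without rat 6 the share was 1.4%, and with the library set in the model 3.85%. Of the 9 channel genes, 1 was below that level in the first fit (Trpm4), 1 without rat 6 (Trpm4), and 2 with the library set (Trpm4 and Trpm2). Since Trpm4 was chosen by its p in this comparison, nothing is read from its rank or from these counts.

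**Figure D1:**
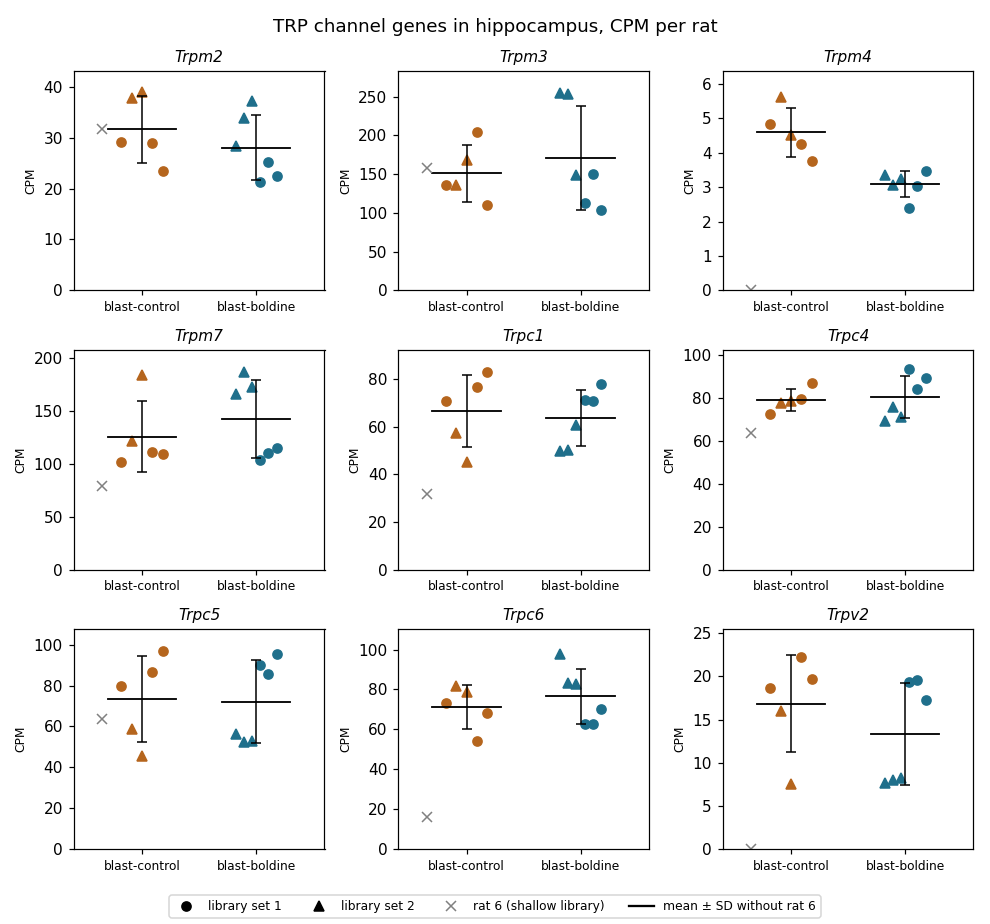
Level of each of the 9 genes in CPM (y axis, from 0) in blast-control and blast-boldine rats, with circles for library set 1, triangles for library set 2, a cross for the shallow library of rat 6, and bars for the mean ± SD without rat 6. In the Trpm4 panel the blast-boldine rats (2.39 to 3.48 CPM) sit below the blast-control rats (3.75 to 5.63 CPM) apart from rat 6, whereas in the Trpc5 and Trpv2 panels circles and triangles separate within each group.

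The promoter of Trpm4 is shown because the results turn on this gene, and those of Trpc5 and Trpv2 because they had the largest differences between library sets of any of the 9 (below). Each run is 250 bases before to 50 bases after the RefSeq start, 5′ to 3′ on the gene's strand, and capitals mark CpG dinucleotides. The coordinates are those of GRCr8, another build than the count table's mRatBN7.2: chr1:104948187-104948486 on the reverse strand for Trpm4, chrX:113027589-113027888 on the reverse strand for Trpc5, and chr10:47771973-47772272 on the forward strand for Trpv2.
Trpm4: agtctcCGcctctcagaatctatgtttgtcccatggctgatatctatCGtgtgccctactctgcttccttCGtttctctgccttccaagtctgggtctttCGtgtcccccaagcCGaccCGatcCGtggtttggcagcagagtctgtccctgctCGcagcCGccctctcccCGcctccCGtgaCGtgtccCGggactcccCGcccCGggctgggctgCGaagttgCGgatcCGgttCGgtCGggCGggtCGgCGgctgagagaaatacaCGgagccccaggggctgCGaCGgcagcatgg
Trpc5: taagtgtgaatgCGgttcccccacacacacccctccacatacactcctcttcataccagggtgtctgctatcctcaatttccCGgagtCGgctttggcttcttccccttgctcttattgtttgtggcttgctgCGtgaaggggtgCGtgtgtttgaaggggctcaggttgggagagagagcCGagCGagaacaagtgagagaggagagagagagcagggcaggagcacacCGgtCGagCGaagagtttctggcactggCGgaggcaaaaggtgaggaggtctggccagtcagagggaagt
Trpv2: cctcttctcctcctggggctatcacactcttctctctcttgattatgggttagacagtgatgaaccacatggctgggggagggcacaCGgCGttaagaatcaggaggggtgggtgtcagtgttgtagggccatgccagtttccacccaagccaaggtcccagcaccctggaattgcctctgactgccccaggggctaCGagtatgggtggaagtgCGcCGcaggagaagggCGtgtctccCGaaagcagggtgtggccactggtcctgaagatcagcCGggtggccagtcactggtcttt
The Trpm4 window held 26 CpG and 64% G or C, against 11 CpG in that of Trpc5 and 8 in that of Trpv2. The median over 33469 rat promoters was 7 CpG, and 15.2% of them held as many as Trpm4 or more. The letters GGGCGG (GC box, both strands) were found in the Trpm4 window and in 33.1% of all windows, and not in those of Trpc5 and Trpv2. Neither TATAAA, found in 14.2% of all windows, nor TGACGTCA (CRE), found in 1.83%, was in the windows of the 8 genes that RefSeq's table held. A match of letters is a description and not a bound site.

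In the other TRPM genes the blast-boldine and blast-control libraries overlapped. Trpm2, the ADP-ribose-gated channel (chr20:10707045-10752352, forward strand), ranged from 21.2 through a median of 26.7 to 37.1 CPM in blast-boldine rats, and lay at 29.2, 37.7, 39.0, 29.02 and 23.3 CPM in blast-control rats 1, 4, 5, 7 and 9. Of the blast-boldine libraries 2 of 6 were below every one of these blast-controls. The means were 28.0 ± 6.37 CPM (SD, n = 6) and 31.7 ± 6.57 CPM (SD, n = 5), with a log2 fold change of -0.18 (SE 0.18) that became -0.23 (SE 0.10) with the library set as a term. Within sets the difference in mean log2 CPM was -0.24 (set 1) and -0.22 (set 2 without rat 6).

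Trpm3, a channel opened by heat and by the steroid pregnenolone sulfate, had the largest coefficient of variation of the 4 TRPM genes in blast-boldine rats, 39.4% (chr1:219673200-220557610, forward strand, the host gene of Mir204). Blast-boldine rats ranged from 103.8 through a median of 149.4 to 254.7 CPM, with rats 12 and 17 far above the other 4. Blast-control rats 1, 4, 5, 7 and 9 were at 135.9, 135.6, 168.3, 204.7 and 110.4 CPM. The log2 fold change was 0.17 (SE 0.25), and the sign differed between sets, at -0.27 in set 1 and 0.49 in set 2 without rat 6. Trpm7, the channel-kinase (chr3:114046258-114134765, reverse strand), ranged from 103.5 through 140.6 to 187.2 CPM in blast-boldine rats, and was at 101.8, 121.6, 184.5, 111.5 and 109.7 CPM in the same control rats. The fitted log2 fold change was 0.22 (SE 0.21) with all libraries and 0.12 (SE 0.11) with the library set as a term.

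TRPC channels, which assemble with one another and open after Gq-coupled receptors are stimulated, overlapped between the groups in all 4 genes. Trpc4 (chr2:138351086-138476644, forward strand) was the steadiest gene, with a coefficient of variation of 12.3% in blast-boldine rats and 6.51% in blast-controls without rat 6. Its range was 69.1 to 93.1 CPM with boldine (median 79.9) and its values without boldine were 72.5, 77.3, 78.2, 79.4 and 86.7 CPM in rats 1, 4, 5, 7 and 9. Its log2 fold change was 0.05 (SE 0.12).

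Trpc5 (chrX:107950685-108086239, reverse strand), the close relative with which Trpc4 shares its mode of opening, had blast-boldine values from 52.5 through a median of 71.0 to 95.3 CPM, and values of 79.9, 58.8, 45.3, 86.4 and 97.1 CPM in the same blast-controls. Trpc1, a subunit that joins Trpc4 and Trpc5 in mixed channels (chr8:96263325-96313725, reverse strand), ranged from 49.8 through 65.8 to 78.0 CPM with boldine, and was at 70.7, 57.2, 45.1, 76.5 and 82.7 CPM without it. Their log2 fold changes were -0.02 (SE 0.23) and -0.03 (SE 0.19). For both genes the groups overlapped over most of their range, and the sign of either fold change turned with the model.

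Trpc6, a channel opened directly by diacylglycerol (chr8:5759387-5864000, forward strand), ranged from 62.5 through a median of 76.5 to 98.0 CPM in blast-boldine rats, and was at 73.0, 82.0, 78.5, 54.0 and 68.0 CPM in rats 1, 4, 5, 7 and 9 without it. Of the blast-boldine libraries 3 were above all 5 of these and the log2 fold change was 0.17 (SE 0.20). Trpv2, a relative of the capsaicin receptor that macrophages and microglia express (chr10:47272942-47294263, forward strand), ranged from 7.63 through 12.7 to 19.6 CPM with boldine, and was at 18.6, 16.0, 7.58, 22.3 and 19.7 CPM without it. It averaged 13.3 ± 5.94 CPM (SD, n = 6) with boldine and 16.8 ± 5.64 CPM (SD, n = 5) without, a fitted log2 fold change of -0.30 (SE 0.34). Its groups overlapped, and within each group the values were divided between the library sets.

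Over the 9 genes 4 fold changes were positive and 5 negative. Their median log2 fold change was -0.015, and that of all genes tested was 0.0046. In rat 6 the 9 genes had 0 to 10 counts, with the most for Trpm3, where 0.290 to 9.53 counts would be had at the level of the other libraries.

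**Figure D2:**
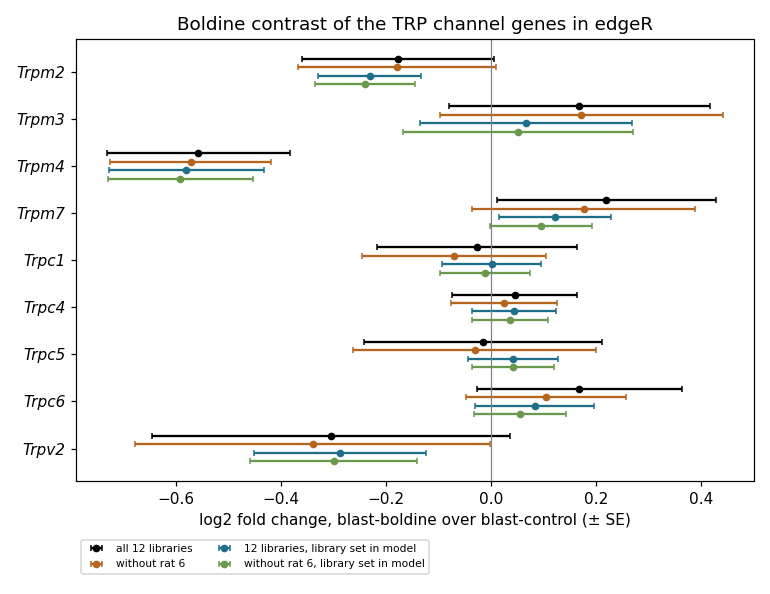
Log2 fold change of blast-boldine over blast-control rats (x axis) with its SE (bars) for the 9 genes in 4 edgeR fits, coloured by whether rat 6 and the library set were in the fit. Trpm4 lies between -0.56 and -0.59 in all 4 fits, Trpm2 between -0.18 and -0.24 with bars that shorten when the library set is a term, and Trpc1, Trpc4 and Trpc5 lie close to 0.

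The levels of the 9 genes, compared with one another per kb of exon in the 11 libraries other than rat 6, did not use the boldine comparison and could be tested. Trpc6 was at 26.6 ± 4.45, Trpc4 at 25.5 ± 2.48, Trpc5 at 24.9 ± 6.70 and Trpm3 at 23.4 ± 7.77 CPM per kb (SD, n = 11). Trpm7 followed at 18.95 ± 4.87 and Trpc1 at 16.2 ± 3.22 CPM per kb. Trpm2 was at 6.55 ± 1.42, Trpv2 at 5.32 ± 2.07 and Trpm4 at 0.898 ± 0.223 CPM per kb. Neighbours in this order were compared within libraries by an exact two-sided sign-flip permutation test of log2 CPM per kb, with p adjusted over 8 pairs. Of these, 2 steps passed. Trpc1 was above Trpm2 by 1.31 on the log2 scale in 11 of 11 libraries (exact adjusted p = 0.00391), and Trpv2 was above Trpm4 by 2.45 in 11 of 11 libraries (exact adjusted p = 0.00391). The raw p of both, 0.000977, is the smallest this design can give. The step from Trpm3 to Trpm7 was 0.28 on the log2 scale in 8 of 11 libraries (exact adjusted p = 0.0807). Its mean had the same direction in set 1 (0.33, 5 of 6 libraries) and in set 2 without rat 6 (0.21, 3 of 5 libraries). The other 5 steps had exact adjusted p between 0.338 and 0.640, and none of these steps passed. Several of the other 5 pairs of neighbours had opposite orders in the sets. Trpv2 was above Trpm2 in 6 of 6 libraries of set 1 and below it in 5 of 5 of set 2 without rat 6, with mean log2 differences, Trpm2 minus Trpv2, of -0.33 and 1.24. Trpc1 was above Trpm7 in 6 of 6 libraries of set 1 (Trpm7 minus Trpc1, -0.30) and below it in 5 of 5 of set 2 (0.82). Trpc5 was above Trpc4 in 6 of 6 libraries of set 1 (Trpc4 minus Trpc5, -0.18) and below it in 5 of 5 of set 2 (0.39). Trpc6 was below Trpc4 in 5 of 6 libraries of set 1 and above it in 5 of 5 of set 2, and Trpc5 was above Trpm3 in 5 of 6 and below it in 4 of 5. These counts within sets are a description. The 2 steps that passed had the same direction in every library of both sets and set off 6 genes at 16.2 to 26.6 CPM per kb from Trpm2 and Trpv2 at 6.55 and 5.32, and these from Trpm4.

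Of the other TRP genes looked for, 18 of 19 were in the table and 9 passed the filter on low counts. Mcoln1, a calcium channel of lysosomes, was at 25.6 CPM per kb, and Pkd2, the polycystin channel of primary cilia, at 18.2, in the range of the abundant genes above. Trpv1, the capsaicin receptor, was at 1.299, Trpc7 at 1.10, Trpv4 at 0.881, Trpv3 at 0.816, Trpv6 at 0.456 and Trpm1 at 0.291 CPM per kb, so that Trpm4 stood among genes of low level. Trpv5 had 0 counts in every library, and Trpa1, Trpm5, Trpm8, Trpc2, Mcoln2, Mcoln3, Pkd2l1 and Pkd2l2 had at most 13. None of the 9 that were tested had an unadjusted p below 0.05 between boldine and control. With the library set in the model 1 was higher (Trpc7, log2 fold change 0.41, SE 0.17) and 2 were lower (Trpv1, -0.44, SE 0.19, and Trpv6, -0.76, SE 0.32) at an unadjusted p below 0.05, against 3.85% of all genes tested in that model, and none at an adjusted p below 0.05. In Trpc7, 5 of 6 blast-boldine libraries were above every blast-control without rat 6.

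**Figure D3:**
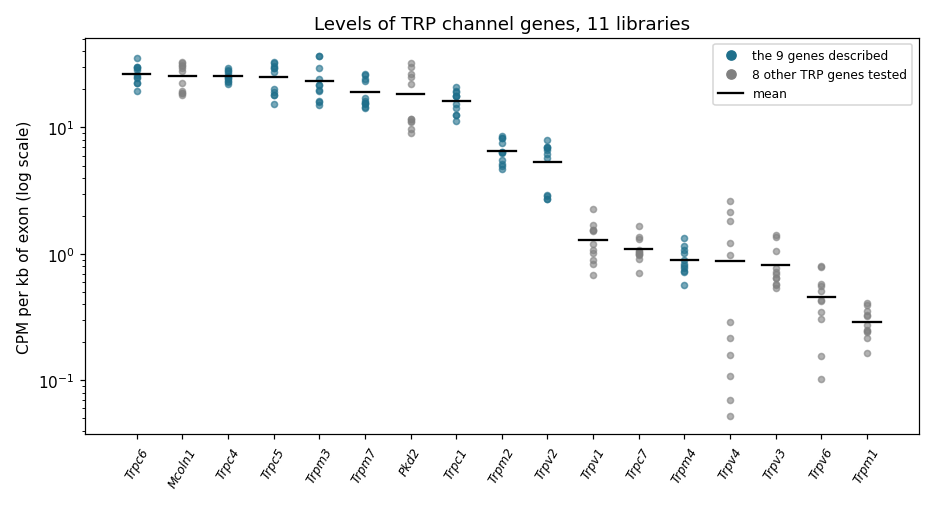
Level in CPM per kb of exon (y axis, log scale) of the 9 genes (blue) and of 8 other TRP genes that passed the filter (grey), with a point for each of 11 libraries and a bar at the mean. Trpm4 lies at 0.898 CPM per kb, below Trpv2 at 5.32, and Trpv4 has the widest spread, from 0.0519 to 2.63 CPM per kb.

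Among the 11 libraries other than rat 6 the library sets accounted for most of the first principal component. Differences between the sets were fitted over all 12 libraries in the same model as treatment. Of all genes tested 66.1% differed between the sets at an adjusted p below 0.05 (edgeR, Benjamini-Hochberg over 12325 genes), and 6 of the 9 channel genes did, 3 higher in set 1 and 3 lower. That is near the share of all genes, so nothing particular to the 9 is read from it. The division was chosen with the first principal component known, so these values describe it. Of the 9 genes Trpv2 had the largest difference, at 1.04 on the log2 scale (set 1 minus set 2, SE 0.17, edgeR adjusted p = 7.69e-05). Set 1 lay at 17.3 to 22.3 CPM and set 2 without rat 6 at 7.58 to 16.0 CPM, the top value being that of rat 4 and the next 8.23 CPM. Trpc5 differed by 0.75 (SE 0.09, edgeR adjusted p = 3.66e-06), with 79.9 to 97.1 CPM in set 1 and 45.3 to 58.8 CPM in set 2 without rat 6. Trpc1 differed by 0.52 (SE 0.09, edgeR adjusted p = 0.000213). For these 3 genes the sets did not overlap once rat 6 was left out. The same held for 2 genes lower in set 1. Trpm7 was at 101.8 to 115.2 CPM in set 1 and 121.6 to 187.2 CPM in set 2. Trpc6 was at 54.0 to 73.0 and 78.5 to 98.0 CPM. In the other genes of the 9 the sets overlapped. The share of all genes whose sets did not overlap was not computed, so nothing particular to these genes is read from it.

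Trpm7 was lower in set 1 by a log2 difference of -0.58 (SE 0.11, edgeR adjusted p = 0.000212), Trpm2 by -0.51 (SE 0.10, edgeR adjusted p = 0.000336) and Trpc6 by -0.35 (SE 0.11, edgeR adjusted p = 0.0128). Trpm3 (-0.47, SE 0.20, adjusted p = 0.05004) and Trpc4 (0.19, SE 0.08, adjusted p = 0.0547) were just past the threshold and not called by edgeR. For Trpm4 the difference was -0.17 (SE 0.15, edgeR adjusted p = 0.344). As Trpm4 was chosen by its boldine difference, nothing is read from the size of that difference beside this one.

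**Figure D4:**
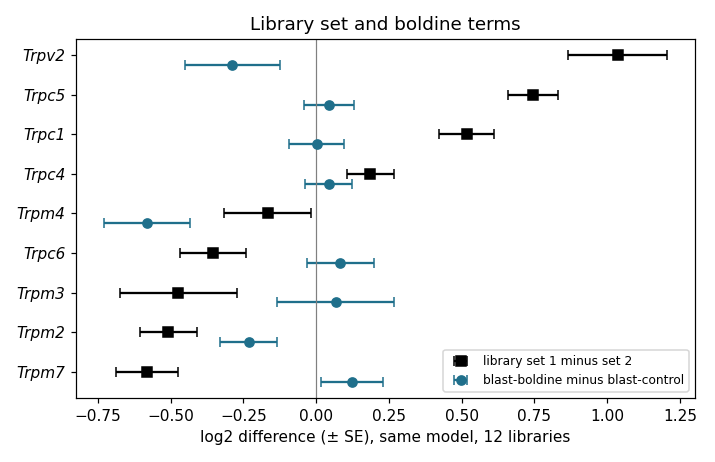
Log2 difference between library sets (set 1 minus set 2, black squares) and between blast-boldine and blast-control rats (blue circles) with their SE (bars), from 1 edgeR model of 12 libraries, with genes ordered by the set difference. The set difference runs from 1.04 in Trpv2 to -0.58 in Trpm7. In Trpm4, which was chosen by its boldine difference, the set difference is -0.17 and the boldine difference is -0.58.

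Some cell type markers moved with some of these genes. In bulk RNA, fewer cells of a type and less RNA per cell cannot be told apart. The summed CPM of 6 microglia markers was 311 to 353 in set 1 and 132 to 216 in set 2 without rat 6. The 216 was that of rat 4, the rat of set 2 with the highest Trpv2. Csf1r was the largest part of this sum, with means of 116 CPM with boldine and 129 CPM without it and without rat 6. Cx3cr1 was at 34.7 to 41.2 CPM in set 1 and 13.0 to 30.1 CPM in set 2 without rat 6. Aif1 varied little within groups that each hold both sets, with an SD of 2.87 about 18.1 CPM with boldine and 1.41 about 18.9 CPM without it. The part of microglia in the Trpv2 values was not tested. Trpm2, which microglia also express, was lower in set 1, where the microglia sum was higher. Prox1, a marker of dentate granule cells, was at 89.7 to 112 CPM in set 1 and 165 to 215 CPM in set 2 without rat 6. Trpc6, known from the dentate gyrus, was also higher in set 2. Prox1 was 1 of 8 genes of the list of hippocampal excitatory neurons and was named with its values seen. Neurod6 of the same list tended the other way, at 204 to 284 CPM in set 1 and 179 to 213 CPM in set 2 without rat 6. Wfs1 of that list overlapped, at 325 to 422 and 320 to 535 CPM. C1ql2 of the list was not compared between the sets. The part of the granule cells in the Trpc6 values was not tested.

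Trpm3 stood beside choroid plexus markers. The sum of 8 of these markers was 1351, 952 and 1111 CPM in blast-boldine rats 12, 17 and 32, and 729 and 1331 CPM in blast-control rats 1 and 7. In the other 6 libraries of this depth it was 10.2 to 55.1 CPM, and in rat 6 it was 0. Ttr (transthyretin), the most abundant of them, was at 893, 645, 791, 494 and 880 CPM in those 5 rats. Trpm3 was at 254.7, 252.8, 149.9, 135.9 and 204.7 CPM in the same rats. In set 1 the 3 rats high in Ttr had Trpm3 at 135.9 to 204.7 CPM and the other 3 at 103.8 to 112.8 CPM. In set 2 the 2 rats high in Ttr had 252.8 and 254.7 CPM and the other 3 of this depth 135.6 to 168.3 CPM. Trpv4, the osmosensitive channel of choroid plexus and ventricle lining, was at 8.44, 6.94, 3.90, 3.16 and 5.82 CPM in rats 12, 17, 32, 1 and 7, and below 1 CPM in each of the other 6. The part of choroid plexus in the Trpm3 and Trpv4 values was not tested. With 3 such rats among 6 blast-boldine and 2 among 6 blast-controls, the median log2 fold change of the choroid plexus list was 0.33, and no gene of it had an unadjusted p below 0.05.

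**Figure D5:**
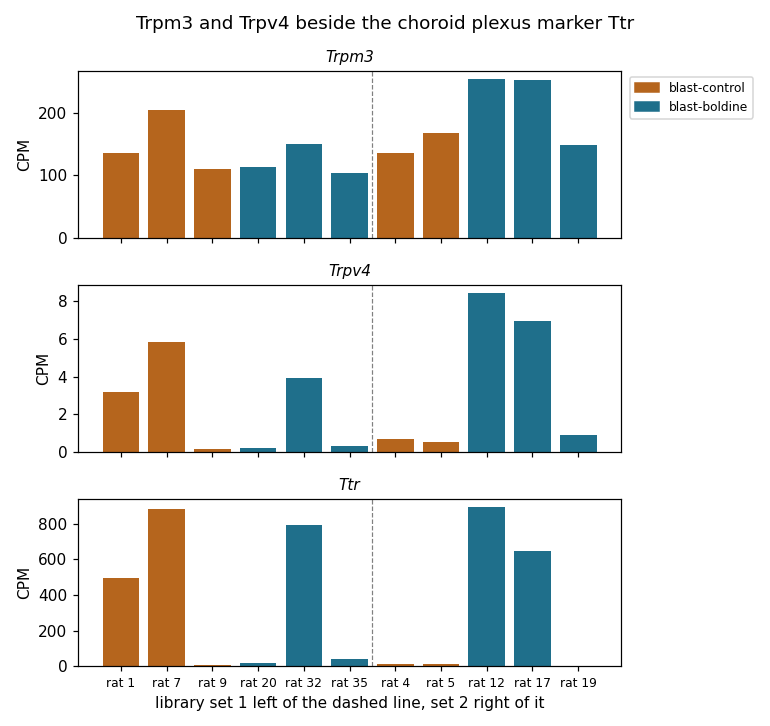
CPM of Trpm3, of Trpv4 and of the choroid plexus marker Ttr (bars from 0, 3 panels) in the 11 libraries other than rat 6, coloured by group, with library set 1 left of the dashed line and set 2 right of it. The 5 rats high in Ttr (494 to 893 CPM) are those with the highest Trpm3 within their set and with Trpv4 at 3.16 to 8.44 CPM.

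The genes around the channels were counted in lists. None of the lists' genes passed an adjusted p of 0.05 between boldine and control, and none had an unadjusted p below 0.05 in the fit of all 12 libraries, against 1.07% of all genes tested. Of the Gq and phospholipase C pathway, upstream of the TRPC channels, 22 of 22 genes were tested, with a median log2 fold change of 0.0018. Its outer values were those of Itpr1, the IP3 receptor (-0.23, SE 0.20), Chrm1, the M1 muscarinic receptor (-0.22, SE 0.13), Htr2c, the serotonin 2C receptor (0.15, SE 0.47), and Dgkb, a diacylglycerol kinase (0.33, SE 0.24). Of store-operated calcium entry 6 genes were tested, with a median of -0.08. Among them were the pore subunits Orai1 (-0.15, SE 0.47), Orai3 (-0.10, SE 0.43) and Orai2 (-0.05, SE 0.11), and the calcium sensor Stim2 (0.16, SE 0.12).

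Of the partner proteins of these channels 20 were tested, with a median of -0.04. Abcc8, the sulfonylurea receptor that pairs with Trpm4, averaged 51.8 ± 8.47 CPM (SD, n = 6) with boldine and 55.7 ± 8.57 CPM (SD, n = 5) without it and without rat 6, with a log2 fold change of -0.09 (SE 0.15). It was measured at 10 or more times the CPM of Trpm4 in every one of these libraries. Kcnj11, the potassium channel subunit that is the other partner of Abcc8, had the lowest value of the list (-0.38, SE 0.24). With the library set in the model it had an unadjusted p below 0.05 in edgeR (-0.36, SE 0.11). It was the 1 gene of the 20 at that level, against 3.85% of all genes tested in that model. None was in the lists of Gq and phospholipase C, store-operated entry or ADP-ribose metabolism. Jph3, a protein of membrane junctions, was at -0.29 (SE 0.22), Kctd5 at 0.18 (SE 0.17) and the G protein subunit Gnai1 at 0.20 (SE 0.12). Of ADP-ribose metabolism, which makes and removes the ligand of Trpm2, 8 genes were tested, with a median of -0.08. The NAD hydrolase Sarm1 was at -0.21 (SE 0.20), the ADP-ribose hydrolase Nudt9 at -0.11 (SE 0.20), Parp2 at 0.0020 (SE 0.25) and Parg, which cuts poly-ADP-ribose, at 0.11 (SE 0.17).

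Likeness to Trpm4 was ranked over 12022 genes by the correlation of log2 CPM over 11 libraries, after the means of each library set and treatment were taken off. The 5 nearest genes were Slc19a3, a thiamine transporter (r = 0.95), Megf10, an engulfment receptor of astrocytes (r = 0.94), Txnrd2, the mitochondrial thioredoxin reductase (r = 0.94), Lingo2 (r = 0.93) and Bco2, a carotenoid-cleaving enzyme (r = 0.93). These are the top of a long ranking over few libraries that differ in depth, and are a description. Taking off the means leaves still less independent variation, so high values of r are easily had. Their own log2 fold changes between boldine and control ran from -0.06 in Megf10 to 0.31 in Bco2, against -0.56 in Trpm4. Among the 9 genes themselves the closest pair was Trpc1 with Trpc5 (r = 0.72), followed by Trpc5 with Trpv2 (r = 0.67), and the most opposed was Trpm7 with Trpv2 (r = -0.84). Trpm4 was opposed to Trpc4 (r = -0.67).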

How the data were processed

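Hippocampal RNA of 12 rats was sequenced as stranded, ribosomal RNA-depleted libraries, 1 per rat. Reads were freed of PCR duplicates in HTStream by the authors, placed on mRatBN7.2 by STAR 2.7.11b, and counted on exons by strand with featureCounts (Subread 2.0.1). The deposited table gives raw counts per gene. The command the study states sets no option for reads with several alignments, which featureCounts then leaves uncounted.

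From the counts, CPM and fold changes were computed with edgeR 4.0.16 in R 4.3.3 (TMM, filterByExpr with a minimum of 10 counts, quasi-likelihood test, treatment as the only term, Benjamini-Hochberg over 12325 genes). Log2 CPM added a prior count of 2. Levels were divided by the exon length of the count table. Marker sums are summed CPM. Groups came from the labels and the feeding dose, age and times from the paper. Rat 6 was kept in the first fit and left out where stated.

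Alternatives were DESeq2 1.42.0, limma-voom (limma 3.58.1), RLE size factors, no filter, the library set as a term, each rat left out, and pairs of these. Overlap of groups, contrasts and orders within sets and marker sums without rat 6 were added after seeing the data. Both kinds of test were tried on simulated counts or levels beforehand. The genes named are the 9, the other TRP genes that passed the filter (1 is not reported here), the 2 highest and 2 lowest fold changes of each pathway list, any gene of such a list with an unadjusted p below 0.05, and the 5 most like Trpm4. Abcc8 and the marker genes Ttr, Prox1, Neurod6, C1ql2, Slc6a13, Lum, Tmem119, Wfs1, Csf1r, Cx3cr1, Aif1, Camk2a, Slc17a7, Lhx2, Flt1 and Pdgfrb were named outside this rule, with their values seen. The 9 genes and all lists were chosen with earlier results of these data known. Promoter sequences are those of RefSeq for GRCr8, which held 8 of the 9 genes (not Trpc1). Other steps ran in Python 3.11.15 (scipy 1.17.1, pandas 2.3.3, numpy 2.4.6, matplotlib 3.10.9).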

Additional observations from a re-analysis of the deposited data

Results flagged for a closer look

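Libraries that stood apart from their group were sought in the 9 genes by the gap between the highest or lowest log2 CPM and its nearest neighbour, divided by the range of the group, against the 95% critical value of Dixon's test for 6 libraries. Chance alone gives about 1 such library in 20 groups. In blast-boldine rats, rat 20 stood apart for Trpm4 (0.629), at a log2 CPM of 1.33 against 1.66 to 1.85 in the other 5. In blast-controls, rat 6 stood apart for Trpm4 (0.898), Trpv2 (0.796) and Trpc6 (0.745), where it had 0, 0 and 1 counts. At so few counts the log2 CPM is set by the depth of the library and the prior count of 2, so these ratios say nothing of the level in rat 6. Without rat 20 the log2 fold change of Trpm4 was -0.49, and without rat 6 it was -0.57.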

How the results depend on the processing

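In 19 alternatives the log2 fold change of Trpm4 stayed negative, between -0.62 and -0.48. Every blast-boldine library lay below every blast-control other than rat 6, so leaving out a rat could hardly turn this sign. Trpm4 was also chosen on this comparison, so the range is a description. No gene passed an adjusted p of 0.05 in any of them. Genes with an unadjusted p below 0.05 numbered 85 with DESeq2, 254 without the filter, 474 with the library set, 279 with DESeq2 and no rat 6, and 670 with the set and no rat 6, against 132. With each rat left out they numbered between 85 and 214, lowest without blast-boldine rat 12 or rat 17 and highest without blast-control rat 5. The channel genes among them numbered 2 with the library set and 2 with the set and no rat 6, against 1. Trpc1 turned sign with the library set (0.0014), and with each rat left out lay between -0.120 and 0.0651. Trpc5 turned sign with the library set (0.0428) and with the set and no rat 6 (0.0428), and with each rat left out lay between -0.128 and 0.0961. In both the ends were blast-control rats 5 and 9. With each rat left out, Trpm2 lay between -0.27 and -0.09 (without rats 19 and 5), Trpm3 between 0.02 and 0.29 (12 and 7), Trpm7 between 0.12 and 0.40 (17 and 5), Trpc4 between 0.0088 and 0.09 (20 and 19), Trpc6 between 0.09 and 0.24 (12 and 4) and Trpv2 between -0.48 and -0.18 (5 and 7). The cause was not tested. The order of levels kept its last 6 places with all 12 libraries, where Trpc4, Trpc5 and Trpc6 led in that order. There 3 steps of the order passed, against 2 without rat 6. No paired analysis was possible because no rat number occurs in both groups.

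Rat 6 had at most 10 counts for any of the 9 genes, and under 3 for 5 of them. Trpm4 rested on as few as 31 counts, and its counting intervals overlap between the closest rats of the groups. The library set was inferred from name suffixes. Blast without boldine cannot be compared with no blast here.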

Other observations

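The remaining marker lists, summed in CPM over the libraries other than rat 6, had overlapping ranges in the 2 groups. Astrocyte markers summed to 2449 to 3664 CPM in blast-boldine rats and 2812 to 3771 CPM in blast-controls. Oligodendrocyte markers summed to 2422 to 6010 and 2663 to 6195 CPM, interneuron markers to 393 to 549 and 374 to 549 CPM, and vascular markers to 145 to 343 and 140 to 329 CPM. Markers of the meninges summed to a median of 55.1 CPM in blast-boldine rats and 37.8 CPM in blast-controls, and 1 of their 5 genes, the GABA transporter gene Slc6a13, had an unadjusted p below 0.05 (log2 fold change 0.98, SE 0.35), none an adjusted p below 0.05 in edgeR. No gene of the other 8 marker lists had an unadjusted p below 0.05 in that fit, against 1.07% of all genes. With the library set in the model, where the share of all genes was 3.85%, 2 meninges genes were higher at this level (Slc6a13, 1.02, SE 0.30, and Lum, 0.78, SE 0.23), and 1 microglia gene (Tmem119, -0.46, SE 0.15) and 1 gene of hippocampal excitatory neurons (Wfs1, -0.31, SE 0.11) were lower.

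The sum of vascular markers was higher in set 2 (271 to 343 CPM without rat 6) than in set 1 (140 to 205 CPM), the direction opposite to that of the microglia sum. Its largest part was Flt1, with a mean of 100 CPM (SD 67.0) in blast-boldine rats. Pdgfrb of the same list varied little there, at 39.8 CPM (SD 3.53). The genes of this list were not compared between the sets one by one. Pkd2, a TRP gene not among the 9, was at 43.8 to 57.0 CPM in set 1 and 107 to 158 CPM in set 2 without rat 6, and its boldine difference with the set in the model was 0.03 (SE 0.11).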
